A study of Mus musculus with 24 samples.

Results

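The genes described here are 10 genes that are used to recognise T cells and natural killer (NK) cells: Cd3d, Cd3e, Cd3g, Lck, Il7r, Klrd1, Ncr1, Nkg7, Gzma and Gzmb. They were chosen by symbol, without use of their counts, and are 10 of the 55376 genes in the count tables, each found once. Bulk mRNA-seq had been made from hematopoietic stem cells (HSCs) and from multipotent progenitors of the MPP3 type, both sorted from mouse bone marrow. The study asked how a raised level of tristetraprolin (TTP, the product of Zfp36), a protein that binds AU-rich elements in mRNAs and promotes their decay, alters stem and progenitor cells. The 6 groups gave 24 libraries, and no group was treated.

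Y-WT HSC (n = 4) and Y-TTPΔARE HSC (n = 4) came from young mice of 4 to 5 months, M-WT HSC (n = 5) and M-TTPΔARE HSC (n = 3) from middle-aged mice of 1 year, and Y-WT MPP3 (n = 4) and Y-TTPΔARE MPP3 (n = 4) from young mice. All mice were male. TTPΔARE mice were homozygous for an allele that lacks the AU-rich element in the 3′ UTR of Zfp36, in every cell of the body and not only in HSCs, and the WT mice were their littermates. HSCs were sorted as Lineage- Sca1+ cKit+ (LSK) cells without CD34 and Flk2 and with CD150, and MPP3 as LSK cells with CD48 and without Flk2 and CD150. The gating shown by the study also takes cells low in IL-7Rα, the product of Il7r, so that Il7r is a gene of the gate. The 3 sets (young HSC, middle-aged HSC, MPP3) carry separate runs of label numbers, so age, cell type and set cannot be told apart. The study's own MPP3 analysis left out a Y-TTPΔARE library, and as the sources used here do not say which, all are kept. The labels do not say how many mice went into a library.

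As background, the CD3γ, CD3δ and CD3ε chains carry the signal of the T-cell receptor into the cell, where the kinase Lck starts it. IL-7Rα is the receptor chain through which developing and resting T cells receive interleukin-7. NK cells read other cells through receptors such as CD94 (Klrd1) and NKp46 (Ncr1), and NK and cytotoxic T cells kill through granules that hold the granzymes A and B (Gzma, Gzmb) and whose membrane carries Nkg7. HSCs and MPP3 cells lie upstream of both lineages, and transcripts of these genes in sorted progenitors can stem from the progenitors or from other cells in the sort. In bulk libraries, more cells of a type and more RNA per cell cannot be told apart.

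In GENCODE M21 on GRCm38, the CD3 genes are neighbours on chromosome 9: Cd3g (chr9:44969572-44980431, minus strand), Cd3d (chr9:44981786-44987339, plus strand) and Cd3e (chr9:44998740-45009627, minus strand). Lck lies at chr4:129548344-129573641 (minus), Il7r at chr15:9505788-9530176 (minus), Klrd1 at chr6:129591782-129598775 (plus), Ncr1 at chr7:4337724-4345164 (plus) and Nkg7 at chr7:43437073-43438249 (plus). Gzma lies at chr13:113093825-113100981 (minus) and Gzmb at chr14:56258838-56262260 (minus). All 10 are protein-coding. Cd3e shares 135 exonic bases with an antisense gene, Gm48719, and Lck shares 25 with Mir8119, so with strand settings not stated their reads may be split.

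Since TTP binds AU-rich elements, the members' 3′ UTRs were searched for its core letters, ATTTA, and for the longer TATTTAT and TTATTTATT, which contain it, on the mRNA strand and in the transcript with the longest 3′ UTR. The ATTTA pentamer was found in 4 members, 6 times in Il7r and 2 times each in Cd3e, Klrd1 and Ncr1. It is held by 65.1% of the 20909 coding genes with a 3′ UTR. TATTTAT was found 2 times in Il7r and 1 time in Ncr1 (27.5% of all these genes), and TTATTTATT only in Ncr1 among the members (7.61% of all these genes). Genes whose 3′ UTR is between 0.5 and 2 times as long were taken for comparison. Among them, the pentamer is held by 92.1% for Il7r (2569 bases) and 68.2% for Cd3e (791 bases). For Klrd1 (306 bases) and Ncr1 (460 bases) these shares are 39% and 51.2%. TATTTAT is held by 46% of such genes for Il7r and 13.3% for Ncr1, and TTATTTATT by 2.94% for Ncr1. The 3′ UTRs of Cd3d, Cd3g, Lck, Nkg7, Gzma and Gzmb hold none of these letters in this annotation. The windows printed here are those of Klrd1 and Ncr1, the NK receptors whose levels set the TTPΔARE MPP3 libraries apart, and those of Il7r with TATTTAT. Capitals mark the pentamer.
Klrd1, chr6:129598605-129598633: tgtacccaagtaATTTAtacttgatggct
Klrd1, chr6:129598745-129598773: acattaaataaaATTTAttctacaccaag
Ncr1, chr7:4344848-4344876: actttaacgcttATTTActgcaagttata
Ncr1, chr7:4344973-4345001: ttttctaattttATTTAttttatgttgcc
Il7r, chr15:9507486-9507514: ttcaaattgactATTTAtccagcactata
Il7r, chr15:9506373-9506401: tttcctcttggtATTTAtaaaggaaaacc
The second Ncr1 window is the one with TTATTTATT. The sequences are from the GENCODE M21 transcripts and are a description of the letters, not evidence of binding. No measurement of binding or of mRNA decay was analysed here.

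Values are CPM, that is counts relative to the library's total, with TMM scaling factors taken over all 24 libraries. The libraries held between 24261371 and 39934554 counts, and 3 counts, the limit that a count of 0 allows, amount to between 0.0762 and 0.115 CPM, for counting error only. In each library between 67.3% and 76.6% of the counts from 1 to 20 were even numbers, so a low count may stand for fewer fragments than its number, and whether both mates of a read pair were counted is not given in the sources used here. The genotype labels were checked with Zfp36, which lay between 33.1 and 72.6 CPM in Y-WT HSC and between 83.3 and 113 CPM in Y-TTPΔARE HSC, between 43.6 and 64.2 and between 91.5 and 110 CPM in M-WT and M-TTPΔARE HSC, and between 21.6 and 34.6 and between 72.7 and 118 CPM in Y-WT and Y-TTPΔARE MPP3. Transcripts of 1971 olfactory and vomeronasal receptor genes, which have no known use in marrow, summed to between 20.5 and 1015 CPM per library. Cell type labels were checked with 11 HSC and progenitor markers. Between Y-WT MPP3 and Y-WT HSC, Flt3, Cd34 and Cd48 were called higher and Slamf1, Mecom, Fgd5 and Procr, among others, lower.

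**Figure D1:**
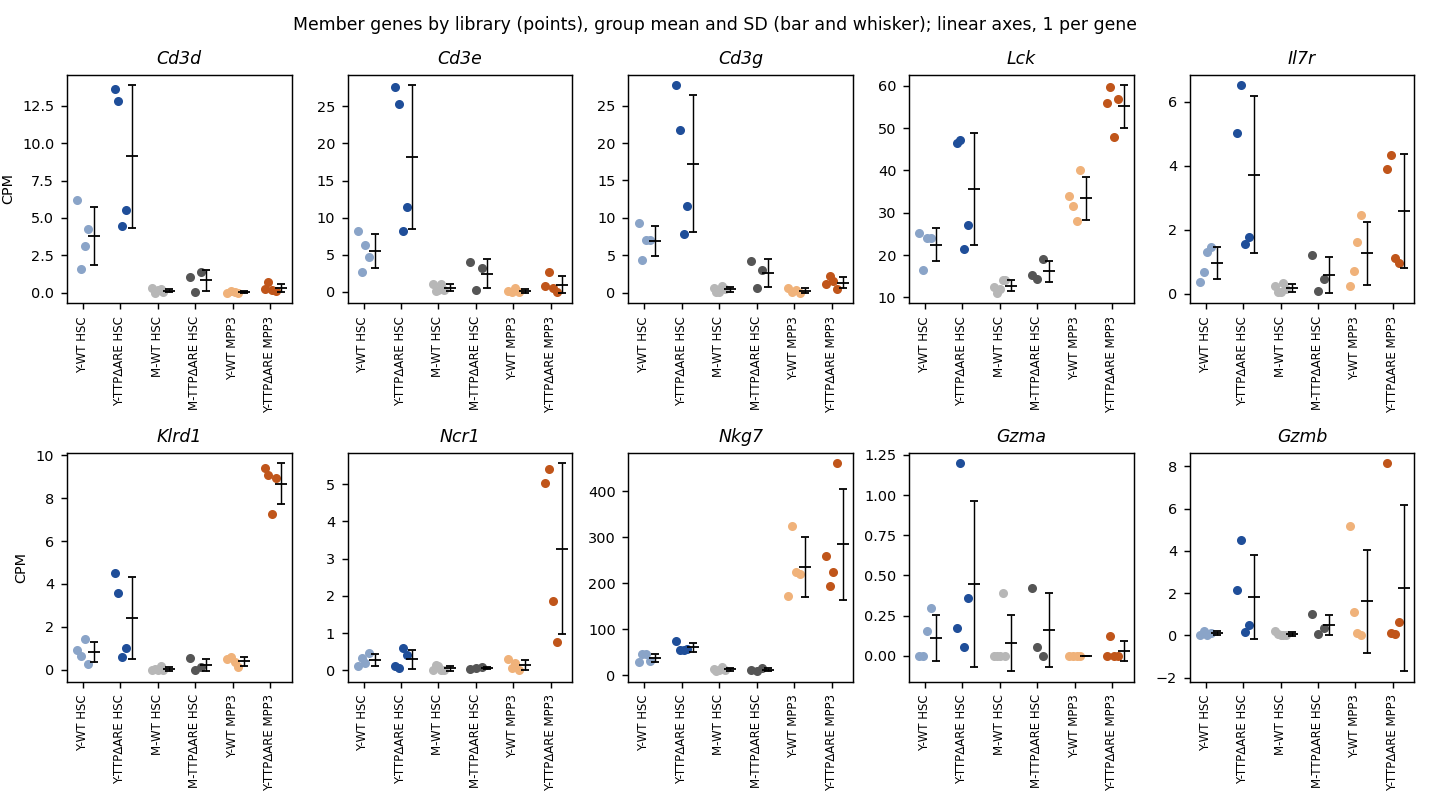
CPM of each of the 10 genes in every library (points) by group, with the group mean and SD beside them, on a linear axis for each gene. The CD3 chains are highest in 2 of the Y-TTPΔARE HSC libraries, Klrd1 and Ncr1 in Y-TTPΔARE MPP3 and Nkg7 in both MPP3 groups.

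The 10 genes were not expressed at like levels. Per kilobase of exon, Nkg7 had the highest group mean in every group, from 13.8 CPM per kb in M-TTPΔARE HSC to 312 CPM per kb in Y-TTPΔARE MPP3. Lck came next in all 6 groups, from 4.36 CPM per kb in M-WT HSC to 18.8 CPM per kb in Y-TTPΔARE MPP3. These are the members that were detected in all 24 libraries with at least 334 counts (Nkg7) and 414 counts (Lck). Together they made up between 64.4% (Y-TTPΔARE HSC) and 98.6% (Y-WT MPP3) of the members' summed CPM. Il7r was also above 0 in every library, with 2 counts at the least. Gzma, by contrast, had 0 counts in 14 of the 24 libraries and was at or under 3 counts in 16, and Ncr1 and Gzmb were at or under 3 counts in 9 libraries each. The highest library was in Y-TTPΔARE HSC for Cd3d, Cd3e, Cd3g, Il7r and Gzma and in Y-TTPΔARE MPP3 for Lck, Klrd1, Ncr1, Nkg7 and Gzmb. It can be 1 library far from its group, as for Gzmb (8.14 CPM, with the next at 0.629 CPM). For Nkg7 the MPP3 groups of both genotypes overlapped. The share of all genes with their highest library in a TTPΔARE group was not counted, so no genotype effect is read from this.

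In young HSCs, the CD3 chains were higher on average in Y-TTPΔARE than in Y-WT, yet the difference did not pass the test. Cd3e, the chain on which all CD3 dimers are built, was at 8.22, 2.74, 6.37 and 4.71 CPM in the 4 Y-WT libraries. It was at 27.5, 25.4, 8.21 and 11.5 CPM in the 4 Y-TTPΔARE libraries. Replicates 1 and 2 of Y-TTPΔARE were the high ones and replicate 3 lay just under the highest Y-WT library, so the groups overlapped. The log2 fold change was 1.70 ± 0.42 (SE), with an adjusted p of 0.268 in edgeR's quasi-likelihood test.

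Cd3g went from 9.29, 4.37, 7.02 and 7.11 CPM in Y-WT to 27.8, 21.7, 7.87 and 11.6 CPM in Y-TTPΔARE. Cd3d went from 6.21, 1.60, 3.14 and 4.23 CPM to 13.6, 12.8, 4.49 and 5.50 CPM. The same 2 libraries were high for both chains, and the groups overlapped for both. Their log2 fold changes were 1.29 ± 0.36 for Cd3g and 1.24 ± 0.44 for Cd3d (adjusted p of 0.335 and 0.496 by edgeR).

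Lck, the kinase that phosphorylates the CD3 chains, showed the same 2 libraries. It was at 25.3, 16.6, 24.2 and 24.0 CPM in Y-WT and at 46.5, 47.3, 21.4 and 27.1 CPM in Y-TTPΔARE, with a log2 fold change of 0.65 ± 0.24 and an adjusted p of 0.545 by edgeR. Il7r was at 0.385, 0.694, 1.30 and 1.45 CPM in Y-WT and at 5.01, 6.53, 1.55 and 1.77 CPM in Y-TTPΔARE. The groups did not overlap for Il7r, but its lowest Y-TTPΔARE library was close to its highest Y-WT library, and its log2 fold change of 1.93 ± 0.57 had an adjusted p of 0.369 by edgeR.

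Of the cytotoxic genes in young HSCs, Nkg7 was at 30.2, 46.1, 46.2 and 30.7 CPM in Y-WT and at 75.3, 54.5, 56.3 and 57.3 CPM in Y-TTPΔARE. Every Y-TTPΔARE library was above every Y-WT library, and replicate 2, among the highest for CD3, was the lowest of the 4 here. The log2 fold change was 0.65 ± 0.17 with an adjusted p of 0.308 by edgeR. Klrd1 was at 0.935, 0.659, 1.42 and 0.296 CPM in Y-WT and at 4.50, 3.56, 0.593 and 1.02 CPM in Y-TTPΔARE, with overlapping groups and a log2 fold change of 1.53 ± 0.69 (adjusted p of 0.677 by edgeR). Ncr1 was at most 0.593 CPM in the 8 libraries, with a log2 fold change of 0.07 ± 0.89 that changed sign between settings. Gzma and Gzmb did not pass the filter on low counts. Gzmb was between 0 and 0.208 CPM in Y-WT and at 2.15, 4.49, 0.169 and 0.481 CPM in Y-TTPΔARE, and Gzma was highest in replicate 2 of Y-TTPΔARE, with 40 counts.

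Thus 8 of the 10 members were tested in young HSCs and edgeR's quasi-likelihood test called 0. A call asks for an average logCPM above 1.5, a fold above 1.2 and an adjusted p below 0.05 at once. Of all 24381 genes tested, 0.0246% were called. Zfp36 itself was not called (log2 fold change of 0.96 ± 0.21, adjusted p of 0.238 by edgeR), although its groups did not overlap. The study reported Zfp36 as significantly higher in these cells. The count of 0 therefore does not show that the members were unchanged. Of the members, 6 had an unadjusted p under 0.05, all higher in Y-TTPΔARE. Of all 24381 genes, 807 were higher and 992 lower with such a p. The edgeR likelihood ratio test called 1 member (Cd3e), against 0.205% of all genes called higher by it, and DESeq2 called 3 (Cd3e, Cd3g and Nkg7), against 0.677%. Groups did not overlap for 2 of the 8 (Il7r and Nkg7), against 1.9% of all genes with Y-TTPΔARE above Y-WT. All 8 had a positive log2 fold change, with a median of 1.27, beside a median of -0.07 over all genes, of which 39.7% were positive. These counts are a description, since a low gene can pass the filter through its high libraries alone. Leaving out the 2 high libraries, which were picked by their CD3 values after these were seen, gave log2 fold changes of 0.43 for Cd3d, 0.88 for Cd3e, 0.53 for Cd3g, 0.16 for Lck, 0.85 for Il7r, 0.02 for Klrd1 and 0.63 for Nkg7, with 0 members called.

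Several other lymphocyte transcripts were high in the same 2 Y-TTPΔARE HSC libraries, but not all were. Trac, the constant region of the T-cell receptor α chain, was at 20.3 and 23.5 CPM in them, at 6.57 and 11.1 CPM in the other Y-TTPΔARE libraries and between 3.19 and 8.28 CPM in Y-WT. Cd8a was at 7.93 and 8.14 CPM in them and between 0.537 and 2.69 CPM in the other 6 young HSC libraries, and Cd4 was at 11.5 and 9.88 CPM and between 4.49 and 5.06 CPM in the other 6. Cd79a, a B-cell receptor subunit, was at 37.2 and 41.3 CPM in them, but was also at 36.4 CPM in replicate 3 of Y-WT. Of the defining NK markers, Klrb1c was at 18.0 and 16.9 CPM in them and between 6.14 and 12.1 CPM in the other 6. Eomes was not high, at 1.37 and 0.240 CPM in them and between 0.110 and 1.92 CPM in the other 6. Nor was the member Ncr1, at 0.115 and 0.0599 CPM in them and between 0.110 and 0.593 CPM in the other 6. Segment genes of the T-cell receptors (255 genes) summed to 34.0 and 40.1 CPM in them and to between 14.5 and 28.0 CPM in the other 6. The olfactory and vomeronasal receptor sum was 80.6 and 335 CPM in them and between 64.4 and 1015 CPM in the other 6, and Y-WT replicate 1, which had the lowest receptor sum of Y-WT, had its highest CD3 sum.

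None of the 28 other T-cell genes listed, all tested in young HSCs, was called, with a median log2 fold change of 0.67, and none of the 24 other NK and cytotoxic genes, with a median of 1.00. Both medians lie above the one over all genes. The summed level of the T-cell list was between 577 and 650 CPM in Y-WT and between 629 and 870 CPM in Y-TTPΔARE, and that of the NK list between 106 and 151 CPM and between 175 and 325 CPM. Among the markers of other cells, the 6 erythroid genes summed to between 46.0 and 54.7 CPM in Y-WT and between 122 and 377 CPM in Y-TTPΔARE. Of them 1, the globin gene Hbb-bt, was called higher. Car1, the most abundant of the 6 (average logCPM of 6.47), was not called. Its log2 fold change was 3.40 ± 0.46 (adjusted p of 0.0715 by edgeR). The 7 monocyte and macrophage markers had a median of 1.02 and the 7 neutrophil markers of -2.02, with 0 called in both and sums of the latter between 7.64 and 168 CPM in Y-WT and between 11.7 and 15.1 CPM in Y-TTPΔARE. The 11 B-cell markers summed to between 62.3 and 131 CPM and between 74.0 and 116 CPM. The part of other cells in the members' levels was not tested.

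In middle-aged HSCs, no member was called either, and the CD3 chains were near the lower limit of detection in M-WT. Cd3g was at 0.672, 0.160, 0.165, 0.952 and 0.482 CPM in the 5 M-WT libraries and at 4.27, 0.577 and 3.10 CPM in the 3 M-TTPΔARE libraries. Cd3e was between 0.107 and 1.09 CPM in M-WT and at 3.97, 0.262 and 3.19 CPM in M-TTPΔARE. Cd3d was between 0 and 0.310 CPM in M-WT and at 1.03, 0.0524 and 1.42 CPM in M-TTPΔARE. For all 3 chains, replicates 1 and 3 of M-TTPΔARE were above every M-WT library and replicate 2 was within the M-WT range. The log2 fold changes were 2.46 ± 0.65 for Cd3g, 2.14 ± 0.77 for Cd3e and 2.47 ± 1.00 for Cd3d, with adjusted p of 0.0911, 0.204 and 0.263 by edgeR.

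Lck was at 12.5, 11.0, 12.1, 14.1 and 14.2 CPM in M-WT and at 15.4, 14.3 and 19.0 CPM in M-TTPΔARE. The groups did not overlap, by a small margin, and the log2 fold change was 0.37 ± 0.12 with an adjusted p of 0.167 by edgeR. Nkg7 was at 15.0, 8.91, 11.2, 17.3 and 12.8 CPM in M-WT and at 12.7, 9.09 and 15.9 CPM in M-TTPΔARE. Its groups overlapped fully, with a log2 fold change of -0.03 ± 0.22 and a 95% interval from -0.51 to 0.45. Il7r was at most 0.336 CPM in M-WT and at 1.21, 0.105 and 0.464 CPM in M-TTPΔARE (log2 fold change of 1.81 ± 0.85, adjusted p of 0.327 by edgeR). Klrd1, Ncr1, Gzma and Gzmb did not pass the filter and reached at most 0.545, 0.160, 0.424 and 1.03 CPM in the 8 libraries.

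Of the 6 members tested in middle-aged HSCs, 4 had an unadjusted p under 0.05, all higher in M-TTPΔARE. Of all 21136 genes, 1639 were higher and 1746 lower with such a p. The number of members called was 0 with the quasi-likelihood and likelihood ratio tests of edgeR and with DESeq2. In the likelihood ratio test and DESeq2, Cd3g had an adjusted p below 0.05 and missed a call through the logCPM limit. Over all alternatives its adjusted p lay between 5.56e-05 and 0.337, and that of Cd3e between 0.00201 and 0.567. Of all 21136 genes, 1.41% were called. Groups did not overlap for 1 member (Lck), against 4.1% of all genes with M-TTPΔARE above M-WT. The median log2 fold change of the 6 was 1.97, beside 0.01 over all genes. It is a description, since a low gene can pass the filter through its high libraries alone. Of the other T-cell genes, 26 were tested and 1 was called, Cd28, a costimulatory receptor, which was higher (log2 fold change of 0.92 ± 0.19, adjusted p of 0.0395 by edgeR). The median of the 26 was 1.23. Of the other NK and cytotoxic genes, 14 were tested, 0 were called and the median was 0.63. Of 8 genes that work with IL-7Rα, Jak3, a kinase of the common γ chain, was lower (-0.44 ± 0.07, adjusted p of 0.0102). Among 7 tested innate lymphoid genes, Tox and Rora were higher (0.58 ± 0.10 and 0.51 ± 0.10, adjusted p of 0.0142 and 0.0308 by edgeR).

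In MPP3 cells, Klrd1 and Lck were higher in Y-TTPΔARE than in Y-WT. Klrd1, which encodes the CD94 partner of the NKG2 receptors, was at 0.509, 0.609, 0.357 and 0.141 CPM in Y-WT and at 9.38, 9.08, 7.27 and 8.95 CPM in Y-TTPΔARE. All 4 Y-TTPΔARE libraries were far above all 4 Y-WT libraries and close to each other. The log2 fold change was 4.45 ± 0.38 (21.8-fold), with an adjusted p of 0.000291 by edgeR, and Klrd1 was called. Ncr1 was at 0.318, 0.0609, 0.208 and 0 CPM in Y-WT and at 5.02, 5.40, 1.87 and 0.769 CPM in Y-TTPΔARE. Its groups did not overlap either, but the 4 Y-TTPΔARE libraries were spread over a wide range. Its log2 fold change of 4.44 ± 0.96 had an adjusted p of 0.0492 by edgeR, and it was not called since its average logCPM of 0.74 was under the limit. The adjusted p of Ncr1 was above 0.05 when any one of 7 of the 8 libraries was left out, and lay between 2.7e-05 and 0.203 over all alternatives.

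Lck was at 33.9, 31.6, 28.0 and 40.1 CPM in Y-WT MPP3 and at 56.0, 59.8, 48.0 and 56.9 CPM in Y-TTPΔARE MPP3. No library of one genotype reached the range of the other. The log2 fold change was 0.76 ± 0.12 (1.69-fold), with an adjusted p of 0.00805 by edgeR, and Lck was called.

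Lck and Klrd1 rose without the CD3 chains reaching the level of young HSCs. The sum of the 3 CD3 chains was at most 1.04 CPM in Y-WT MPP3 and at 2.21, 5.65, 2.28 and 0.664 CPM in Y-TTPΔARE MPP3, and Trac was at most 1.44 CPM in all 8 MPP3 libraries. Cd3e and Cd3g had log2 fold changes of 2.46 ± 1.45 and 2.21 ± 1.08 (adjusted p of 0.53 and 0.456 by edgeR), with overlapping groups. Cd3d did not pass the filter and was at most 0.122 CPM in Y-WT and between 0.140 and 0.736 CPM in Y-TTPΔARE. Of the defining NK markers, Klrb1c was between 0.122 and 1.11 CPM in Y-WT MPP3 and between 0.874 and 4.11 CPM in Y-TTPΔARE MPP3. Its log2 fold change was 1.69 ± 0.73 (adjusted p of 0.384 by edgeR). Eomes was at most 1.04 CPM in the 8 MPP3 libraries, with 0 counts in 2 of the Y-TTPΔARE libraries.

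Nkg7 did not pass the test between the MPP3 groups. It was at 172, 326, 225 and 220 CPM in Y-WT and at 260, 194, 225 and 461 CPM in Y-TTPΔARE, with a log2 fold change of 0.31 ± 0.27 and a 95% interval from -0.29 to 0.91. The highest and the lowest Y-TTPΔARE libraries differed by more than the group means. Il7r was at 0.254, 0.731, 1.64 and 2.48 CPM in Y-WT and at 3.91, 4.33, 1.13 and 0.979 CPM in Y-TTPΔARE (log2 fold change of 1.03 ± 0.70, adjusted p of 0.587 by edgeR). Gzmb varied within both groups, from 0 to 5.18 CPM in Y-WT and from 0.0643 to 8.14 CPM in Y-TTPΔARE, and its log2 fold change was 0.43 ± 1.58. It was -2.55 without replicate 1 of Y-TTPΔARE and 2.43 without replicate 1 of Y-WT, the highest library of each group. Gzma had 0 counts in all 4 Y-WT MPP3 libraries and in 3 of the 4 Y-TTPΔARE libraries, and 4 counts in the other.

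**Figure D2:**
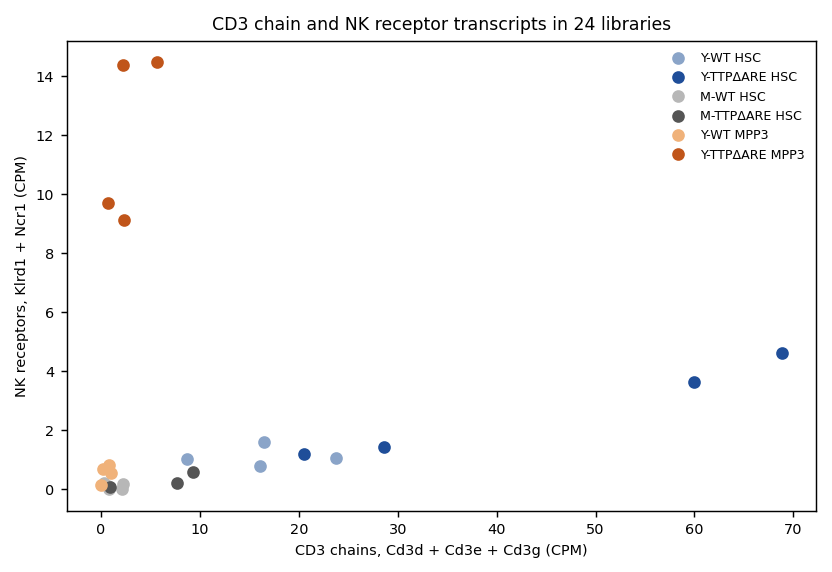
Summed CPM of the CD3 chains (x axis) against summed CPM of Klrd1 and Ncr1 (y axis) for each of the 24 libraries. The Y-TTPΔARE HSC libraries extend along the CD3 axis to 68.9 CPM, and the Y-TTPΔARE MPP3 libraries along the NK receptor axis to 14.5 CPM.

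Of the 8 members tested in MPP3 cells, 2 were called, both higher, against 1.58% of all 19023 genes called higher. Groups did not overlap for 3 of the 8 (Klrd1, Ncr1 and Lck), against 4.22% of all genes with Y-TTPΔARE above Y-WT. All 8 log2 fold changes were positive, with a median of 1.62, beside 0.04 over all genes, of which 54.7% were positive. The counts and medians are a description, since a low gene can pass the filter through its high libraries alone. Ncr1, for example, had between 0 and 10 counts in Y-WT and between 22 and 176 in Y-TTPΔARE. The likelihood ratio test and DESeq2 also called 2, and Lck and Klrd1 were both called in each of the 8 fits with 1 library left out. With the replicate number as a block Lck lost its call, and its adjusted p was at most 0.0504 over the alternatives. A pairing by replicate number is not stated for these libraries. In a fit of all 24 libraries Klrd1 was not called, since its average logCPM over those libraries was under the limit, but its log2 fold change was 4.47 (adjusted p of 0.00369, and between 8.88e-33 and 0.00369 over its alternatives).

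Of 17 tested NK and cytotoxic genes other than members, 6 were called in MPP3, all higher in Y-TTPΔARE, and 11 were not. The uncalled ones include Klrc1, an NKG2 partner of CD94 (log2 fold change of 2.32 ± 1.17, adjusted p of 0.472 by edgeR). Klrk1, the NKG2D receptor, rose by a log2 fold change of 4.05 ± 0.40 (adjusted p of 0.000644 by edgeR). Tyrobp and Fcer1g, adaptor chains through which NK and myeloid receptors signal, rose by 1.51 ± 0.25 and 1.30 ± 0.21 (adjusted p of 0.0137 and 0.0091). Fcgr3, an Fc receptor of NK and myeloid cells, rose by 1.99 ± 0.24 and Cd226, an activating adhesion receptor, by 4.54 ± 0.67 (adjusted p of 0.00187 and 0.00592). None of 25 tested T-cell genes other than members was called, with a median log2 fold change of 0.57. Among them, Cd8a missed a call through the logCPM limit. It was between 0.0954 and 0.244 CPM in Y-WT and between 0.614 and 2.93 CPM in Y-TTPΔARE. Its log2 fold change of 3.25 ± 0.63 had an adjusted p of 0.0298 by edgeR.

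Markers of dendritic cells, monocytes and other cells moved with Klrd1. Of the 10 conventional dendritic cell markers, 9 were called and all were higher in Y-TTPΔARE MPP3, and the 10 genes summed to between 956 and 1378 CPM in Y-WT and between 5705 and 9229 CPM in Y-TTPΔARE. Among them Xcr1 rose by a log2 fold change of 5.52 ± 0.52, Clec9a by 4.74 ± 0.35 and H2-Ab1 by 3.47 ± 0.20 (adjusted p of 0.000478, 0.000115 and 7.16e-05 by edgeR). Of 7 monocyte and macrophage markers, 3 were called higher, with sums between 140 and 369 CPM and between 459 and 652 CPM. Of 7 neutrophil markers, 1 was called higher (Elane), with sums between 266 and 1090 CPM and between 879 and 1945 CPM. The 6 erythroid markers summed to between 12.2 and 30.9 CPM and between 45.7 and 145 CPM, with Hbb-bt called higher. Of 11 B-cell markers Cd22 was called higher, and of 10 early lymphoid genes Rag2. Of 6 tested innate lymphoid genes 1 was called, Id2, a regulator shared with dendritic cells, which rose by 3.89 ± 0.34. This list summed to between 58.0 and 101 CPM in Y-WT and between 243 and 480 CPM in Y-TTPΔARE. Id2 was its most abundant tested gene (average logCPM of 7.03). Tox and Rora, the next, were not called, with log2 fold changes of 0.53 ± 0.20 and -0.12 ± 0.23. Of 9 tested plasmacytoid dendritic cell markers, 1 was called higher (Irf8, by 3.25 ± 0.34). The list summed to between 323 and 369 CPM in Y-WT and between 592 and 796 CPM in Y-TTPΔARE. Irf8 was its most abundant tested gene (average logCPM of 7.50). Tcf4 and Runx2, the next, had log2 fold changes of -0.14 ± 0.11 and 0.20 ± 0.12. Both sums can thus follow 1 gene each. The defining marker of plasmacytoid dendritic cells, Siglech, was at most 1.78 CPM in the MPP3 libraries. The part of such cells in the level of Klrd1, Ncr1 or Lck was not tested.

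**Figure D3:**
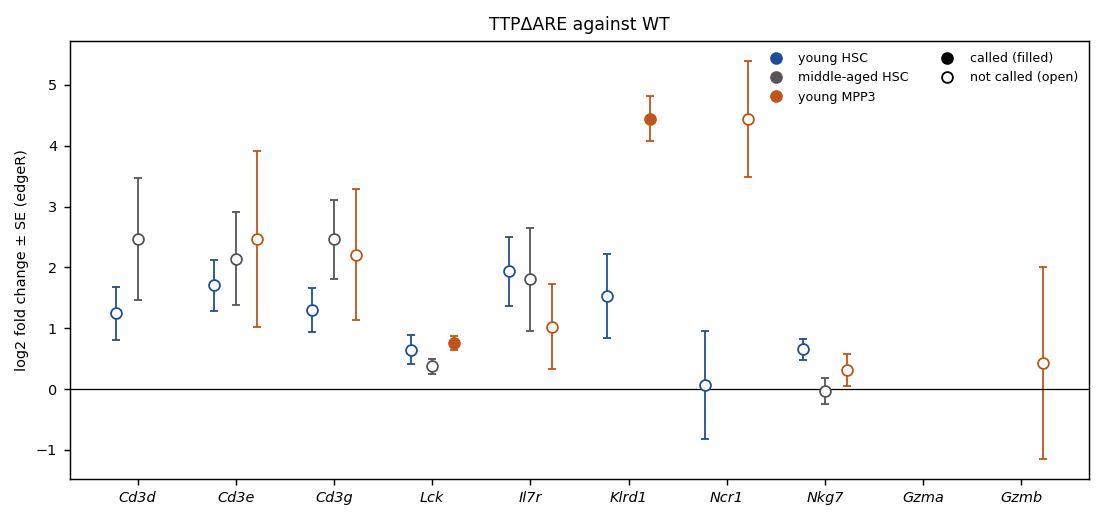
Log2 fold change of TTPΔARE against WT with its SE (edgeR) for each tested member in young HSC, middle-aged HSC and young MPP3. Filled points are called, which holds for Klrd1 and Lck in MPP3 only.

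Whether the effect of TTPΔARE differed between MPP3 and HSC was tested as an interaction. By edgeR's quasi-likelihood and likelihood ratio tests 0 members were called, where the former called 0.429% of all 26337 genes. Of 9 tested members, 2 had an unadjusted p under 0.05, beside 926 higher and 1891 lower of all 26337 genes. These were Klrd1, with a log2 fold change larger in MPP3 by 2.80 ± 0.82, and Ncr1, by 4.19 ± 1.35. Their adjusted p were 0.189 and 0.243 by edgeR. DESeq2 called 1 member, Klrd1, with an adjusted p of 0.027, the lowest of a range up to 0.362 over the alternatives, against 0.991% of all genes called higher by it. For the CD3 chains the difference was 1.49 ± 0.99 (Cd3d), 0.67 ± 1.22 (Cd3e) and 0.82 ± 0.92 (Cd3g), and for Nkg7 it was -0.41 ± 0.37. The intervals of these are wide, from -1.92 to 3.27 for Cd3e, so neither a like effect nor a different one is shown. Between ages in HSCs, 0 members were called for the interaction by either edgeR test or by DESeq2, against 0.0213% of all 28189 genes. Of 10 tested members, 1 had an unadjusted p under 0.05, beside 2505 higher and 1733 lower of all these genes. It was Nkg7, with an effect in middle-aged HSCs lower by 0.72 ± 0.30 (adjusted p of 0.302 by edgeR). The difference was 1.18 ± 1.00 for Cd3d and -0.32 ± 0.30 for Lck. By edgeR, genotype effects on the members were thus not shown to differ between cell types or ages, and DESeq2 differed from it for Klrd1 between cell types.

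Between cell types, Nkg7 was higher and the CD3 chains were lower in MPP3 than in HSCs. In WT, Nkg7 had a log2 fold change of 2.65 ± 0.21 (adjusted p of 5.1e-05 by edgeR), and in TTPΔARE of 2.23 ± 0.26 (adjusted p of 0.000226). In both genotypes, all 4 MPP3 libraries were above all 4 HSC libraries, against 14.2% of all genes in WT and 11.4% in TTPΔARE. Cd3e and Cd3g were lower in WT MPP3, with log2 fold changes of -4.91 ± 1.07 and -4.50 ± 0.88 (adjusted p of 0.00905 and 0.00519 by edgeR). Cd3d passed the adjusted p (0.00135) but not the logCPM limit, with 0, 4, 2 and 0 counts in the 4 WT MPP3 libraries. In TTPΔARE all 3 chains were called lower, with log2 fold changes of -4.74 ± 0.58 (Cd3d), -4.16 ± 0.78 (Cd3e) and -3.63 ± 0.51 (Cd3g) and adjusted p of 0.000342, 0.00419 and 0.000769 by edgeR. The size of a fold change this large depends on the few counts in MPP3.

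Lck went the other way from the CD3 chains, being higher in MPP3 in WT (log2 fold change of 0.59 ± 0.16, adjusted p of 0.0215 by edgeR). This call was lost without Y-WT MPP3 replicate 1 (0.54, with adjusted p between 0.00396 and 0.0562 over the alternatives). In TTPΔARE its change of 0.64 ± 0.23 did not pass (adjusted p of 0.0881), but in this comparison same-numbered libraries varied together, and with the replicate number as a block its change was 0.71 and Lck was called. Over the alternatives its adjusted p lay between 0.00406 and 0.228. Klrd1 had a log2 fold change of -0.99 ± 0.72 between MPP3 and HSC in WT (adjusted p of 0.342 by edgeR) and was called higher in TTPΔARE MPP3 (1.85 ± 0.52, adjusted p of 0.0338). The latter call was lost when any one of 5 of the 8 libraries was left out (replicates 2 and 4 of HSC and replicates 1, 2 and 4 of MPP3), and its adjusted p lay between 0.00114 and 0.0884 over the alternatives. Ncr1 in TTPΔARE was higher in MPP3 by 3.42 ± 0.81 (adjusted p of 0.0151) and was under the logCPM limit.

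Of 7 members tested in WT, 2 were called higher in MPP3 (Nkg7 and Lck), against 14.5% of all 22816 genes, and 2 lower (Cd3e and Cd3g), against 7.69%. Of 9 tested in TTPΔARE, 2 were called higher (Nkg7 and Klrd1), against 9.07% of all 21478 genes, and 3 lower (the CD3 chains), against 7.22%. The 3 CD3 chains were the members with all MPP3 libraries under all HSC libraries, in both genotypes, against 15.1% of all genes in WT and 12.6% in TTPΔARE. The MPP3 and HSC comparisons use the same libraries as the genotype comparisons and are not independent of them. In WT, leaving out Y-WT HSC replicate 1 ended the calls of Cd3e and Cd3g, and leaving out replicate 3 or 4 that of Cd3e, with adjusted p of at most 0.0286, under the threshold, so that the logCPM limit was what they missed. Without both high Y-TTPΔARE HSC libraries, 4 members were called in TTPΔARE (Cd3g, Nkg7, Klrd1 and Lck), and Cd3d and Cd3e were not, with log2 fold changes of -3.89 and -3.29.

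Other genes of the T-cell receptor complex were lower in WT MPP3 as well. Of 28 T-cell genes other than members, 7 were called lower, among them Trac and Cd247, and 2 higher (Cd27 and Ubash3a). Of 19 tested NK and cytotoxic genes, 4 were called higher and 2 lower, and the latter were Il2rb and Klrb1c. Trac had a log2 fold change of -4.65 ± 1.04 and Klrb1c of -3.58 ± 0.57 (adjusted p of 0.00991 and 0.00177 by edgeR).

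**Figure D4:**
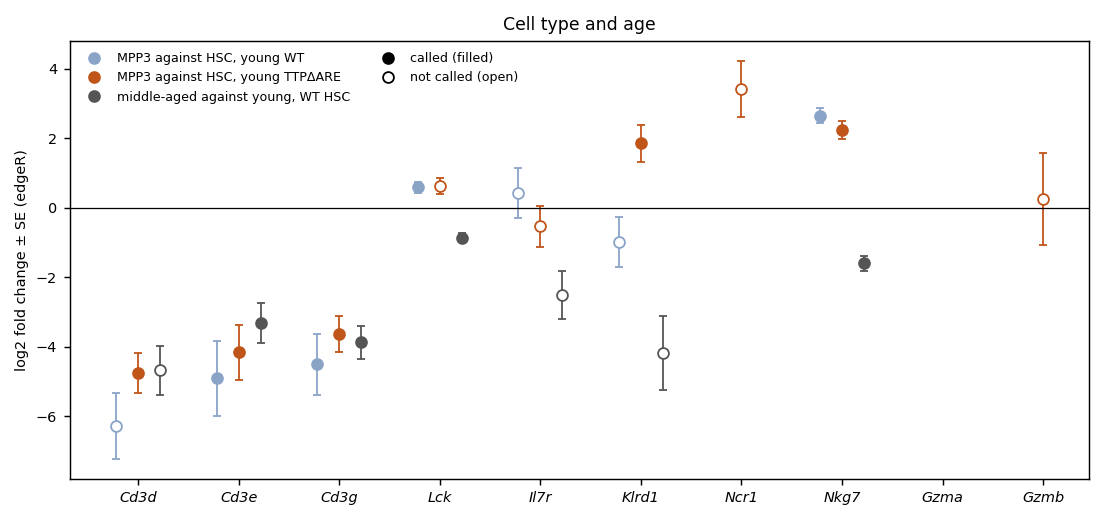
Log2 fold change with its SE (edgeR) of MPP3 against HSC in young WT and young TTPΔARE, and of middle-aged against young WT HSC. Filled points are called. The CD3 chains are below 0 in all 3 comparisons and Nkg7 changes side between cell type and age.

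In WT HSCs, every tested member was lower in middle-aged than in young mice. All 5 M-WT libraries lay under all 4 Y-WT libraries for 7 of the 7 tested members, against 6.2% of all 22280 genes, and 4 members were called lower (Cd3g, Lck, Cd3e and Nkg7), against 3.69%. The count of 7 is shaped by the filter, which low members such as Cd3d, Il7r and Klrd1 passed through the Y-WT libraries, while Ncr1, Gzma and Gzmb did not pass it and had overlapping groups. The log2 fold changes were -3.86 ± 0.47 for Cd3g and -3.31 ± 0.57 for Cd3e (adjusted p of 0.000634 and 0.00359 by edgeR). They were -0.86 ± 0.13 for Lck and -1.60 ± 0.21 for Nkg7 (adjusted p of 0.00196 and 0.000858). Cd3d, Il7r and Klrd1 had log2 fold changes of -4.67 ± 0.70, -2.51 ± 0.69 and -4.17 ± 1.08 with adjusted p of 0.00182, 0.0288 and 0.0224 by edgeR, and were under the logCPM limit. The median over the 7 was -3.31, beside -0.04 over all genes, of which 45.4% were positive. Without Y-WT HSC replicate 1, which left 2 calls, those of Cd3e and Cd3g were lost, and without replicate 3 or 4 that of Cd3e. These missed the logCPM limit alone, as over all alternatives the adjusted p was at most 0.0187 for Cd3e, at log2 fold changes from -3.68 to -3.01, and at most 0.00361 for Cd3g. The adjusted p of Il7r rose above 0.05 without any one of 6 of the 9 libraries and that of Klrd1 without any one of 3, up to 0.0922 and 0.0915 over all alternatives.

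Markers of other cells and of the gates moved with age as well. Cd48, the gene most like Nkg7, Flt3 and Cd34 were called lower in M-WT, with log2 fold changes of -2.32 ± 0.25, -1.16 ± 0.13 and -0.73 ± 0.12, and Slamf1, which encodes CD150, higher by 0.65 ± 0.07 (adjusted p of 0.000343, 0.000351, 0.00239 and 0.00023 by edgeR). The 7 monocyte and macrophage markers had a median of -1.44 with 2 called lower (Cd68 and C1qb), and summed to between 43.0 and 80.4 CPM in Y-WT and between 26.2 and 45.7 CPM in M-WT. The 7 neutrophil markers had a median of -2.26 with 1 called lower (Ltf), and 9 tested early lymphoid genes a median of -1.16 with 3 lower (Satb1, Flt3 and Ccr9) and 1 higher (Ikzf1). Their part in the members' levels was not tested.

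Not all lymphocyte genes were lower in middle-aged WT HSCs. Klrb1c, which encodes the NK1.1 receptor, was between 6.14 and 9.03 CPM in Y-WT and between 27.5 and 38.8 CPM in M-WT, and rose by a log2 fold change of 1.97 ± 0.14 (adjusted p of 3.49e-05 by edgeR). Of 28 T-cell genes other than members, 5 were called lower (among them Ubash3a, Trac, Cd28 and Cd4) and 1 higher (Gata3), with a median log2 fold change of -2.15. Of 18 tested NK and cytotoxic genes, 3 were called lower (Il2rb, Ccl5 and Tyrobp) and 2 higher (Klrb1c and Ctsw). The receptor gene sum was between 42.7 and 209 CPM in M-WT and between 64.4 and 1015 CPM in Y-WT. Since the young and middle-aged HSC libraries form separate sets in the labels, age and set cannot be told apart.

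The members' patterns over the 24 libraries fell apart into those of the CD3 chains and those of the other genes. Pearson correlations of log2 CPM, given as a description over libraries that share groups and depth, were 0.94 between Cd3d and Cd3e, 0.93 between Cd3d and Cd3g and 0.95 between Cd3e and Cd3g. With Lck, those of the 3 chains lay at 0.18, 0.07 and 0.18, while Lck correlated at 0.87 with Klrd1 and at 0.87 with Nkg7. The genes most like the CD3 chains were Cxcr6, a chemokine receptor of resident lymphocytes, with r between 0.94 and 0.96, and Trac and Il2rb, with r between 0.93 and 0.94. The genes most like Lck were Lpxn (0.97), Gimap7 (0.94), Ccr2 (0.94), Gramd3 (0.94) and Cd52 (0.94). Klrd1 was most like Klrk1 (0.95), with Sema4a, Ccr2 and Ms4a4c also among the closest, and Ncr1 was most like Cd209a (0.86). Nkg7 was most like Cd48 (0.99), a marker that the MPP3 gate itself selects, followed by Ncf4 and Plac8 (both 0.98). Il7r was most like Tcf7 (0.84), and Gzmb, with many libraries near 0, was most like Zcchc18 (0.65).

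By group mean, the CD3 chains fell in the same order for all 3 genes: Y-TTPΔARE HSC, Y-WT HSC, M-TTPΔARE HSC, Y-TTPΔARE MPP3, M-WT HSC and Y-WT MPP3. For Cd3d and Cd3g the only neighbours in this order whose libraries did not overlap were Y-WT HSC and M-TTPΔARE HSC, and for Cd3e all neighbours overlapped. Lck followed another order, with Y-TTPΔARE MPP3 (55.2 ± 5.06 CPM, SD, n = 4) above Y-TTPΔARE HSC (35.6 ± 13.3, n = 4), Y-WT MPP3 (33.4 ± 5.11, n = 4), Y-WT HSC (22.5 ± 3.99, n = 4), M-TTPΔARE HSC (16.2 ± 2.48, n = 3) and M-WT HSC (12.8 ± 1.33, n = 5). In this order the libraries of Y-TTPΔARE MPP3, Y-WT MPP3 and M-TTPΔARE HSC did not overlap with those of the next group, and the other neighbours did. Nkg7 was ordered by cell type and age, with both MPP3 groups (285 ± 121 and 236 ± 64.6 CPM, SD, n = 4 each) above Y-TTPΔARE HSC (60.8 ± 9.69, n = 4), Y-WT HSC (38.3 ± 9.08, n = 4) and both middle-aged groups (13.0 ± 3.24, n = 5, in WT and 12.6 ± 3.41, n = 3, in TTPΔARE), and only the MPP3 pair and the middle-aged pair overlapped. Klrd1 was at 8.67 ± 0.952 CPM (SD, n = 4) in Y-TTPΔARE MPP3, apart from the next group, Y-TTPΔARE HSC (2.42 ± 1.91, n = 4), whereas all following neighbours overlapped. Ncr1 was likewise apart only in Y-TTPΔARE MPP3 (3.26 ± 2.30 CPM, SD, n = 4). For Il7r, Gzma and Gzmb all neighbouring groups overlapped.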

How the data were processed

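Count files of 24 libraries, 1 file a library, were used. Each deposited file gives raw counts of reads by gene symbol, without normalization. To make them, the authors used Trim Galore! with Cutadapt for trimming, STAR for alignment to mm10 (GENCODE M22) and featureCounts for counting. How strand and multimapping reads were handled is not given in the sources used here. The labels and the study name different SMARTer-type library kits.

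Groups were taken from the sample titles. Each comparison was fitted on its own groups with edgeR 4.0.16 in R 4.3.3 (filterByExpr at min.count 10 and min.total.count 15, TMM factors, quasi-likelihood F test), over the whole table, with Benjamini-Hochberg adjustment over all tested genes. Calls required all of average logCPM above 1.5, fold above 1.2 and adjusted p below 0.05. CPM in the text are scaled over all 24 libraries, whereas folds are from each fit. The SE is the size of the log2 fold change divided by the square root of F, and 95% intervals use the test's degrees of freedom. In all, 6 comparisons of 2 groups and 2 interactions were fitted. Depth was between 24261371 and 39934554 counts a library, and low members have few counts. No sources state that libraries of a group came from separate mice, so p-values measure the spread between libraries. No pair of libraries of the same group agreed within counting noise (chi-square per degree of freedom of 18.2 or more), and pairs between groups were not checked. The scripts were tested on simulated counts.

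Same-numbered libraries were checked for shared deviations. They varied together in all 4 pairs, with correlations between 0.145 and 0.229, only between TTPΔARE MPP3 and TTPΔARE HSC, a pairing seen in the data and not stated in the labels. Alternatives were the likelihood ratio test, DESeq2 1.42.0, RLE factors, no filter, no logCPM limit, the replicate block, all 24 libraries in 1 fit and each library left out. Leaving out both high Y-TTPΔARE HSC libraries was chosen after seeing the data. Members, gene lists and tests were chosen with earlier results of these data known. Named genes were all members, up to 5 called genes a list by smallest p, fixed defining markers and some uncalled genes of the lists. For likeness, they were the 5 most correlated genes over 1.5 logCPM. Gene positions and 3′ UTRs are those of GENCODE M21 (GRCm38), not M22. Some genes of the lists are not reported here.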

Additional observations from a re-analysis of the deposited data

Results flagged for a closer look

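In groups of 4 or 5 libraries, 50 sets of a member's values were taken up to look for 1 library far from the others. Gzma in Y-WT MPP3, at 0 in every library, could not be tested. The cutoffs flag about 5% by chance in normally distributed values, which sets with most libraries at 0 are not. Of the sets, 6 were flagged. Lck was at 16.6 CPM in Y-WT HSC replicate 2, below the next library at 24.0 CPM. Nkg7 was at 75.3 CPM in Y-TTPΔARE HSC replicate 1, above the next at 57.3 CPM. Gzma was at 0.392 CPM in M-WT HSC replicate 4 and at 0.123 CPM in Y-TTPΔARE MPP3 replicate 2, with all other libraries of both groups at 0. Gzmb was at 0.207 CPM in M-WT HSC replicate 1 and at 8.14 CPM in Y-TTPΔARE MPP3 replicate 1, where the next library was at 0.629 CPM. The replicates 1 and 2 of Y-TTPΔARE HSC that were high for the CD3 chains are a pair and were not flagged by this test, which looks for 1 library.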

How the results depend on the processing

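Of 141 recomputed counts of called members, 131 stayed within 1.5 times the main count. In young HSCs the count of 0 became 1 with the likelihood ratio test, 3 with DESeq2 and 2 with no filter on low counts. In MPP3 between genotypes the count of 2 became 1 with the replicate block, where Lck lost its call, and 1 with all 24 libraries in 1 fit. It became 7 instead of 4 for middle-aged against young WT HSCs with no logCPM limit. For the cell type interaction the count of 0 became 1 with DESeq2 and 1 without both high Y-TTPΔARE HSC libraries, an alternative chosen after seeing the data. Leaving out each library gave between 2 and 4 calls for WT MPP3 against HSC and between 2 and 4 for age, the lower value without Y-WT HSC replicate 1 in both.

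Of 890 recomputed log2 fold changes of members, 838 kept direction and side of the threshold, 20 lost and 18 gained a call, and 14 changed sign. Ncr1 in young HSCs became -0.13 with the replicate block and ranged from -0.50 to 0.51 with a library left out. Nkg7 in middle-aged HSCs became 0.14 with the replicate block and 0.014 with all 24 libraries in 1 fit, and ranged from -0.22 to 0.15 with a library left out. In MPP3, leaving out a library moved Nkg7 from -0.029 to 0.48 and Gzmb from -2.55 to 2.43. Cd3e in the cell type interaction ranged from -0.33 to 2.81. Lck in the age interaction became 0.18 without both high Y-TTPΔARE HSC libraries. The cause of these changes was not tested. Same-numbered libraries paired only in TTPΔARE MPP3 against HSC. Besides the MPP3 genotype count above, the block moved no count by more than 1.5 times. Depth limits Gzma, Gzmb and Ncr1, with few counts in most libraries.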
